A study of Mus musculus with 2 samples.

Results

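The genes described here are 33 mouse genes of homologous recombination, the Fanconi anaemia pathway, the DNA damage checkpoint and mismatch repair, taken by symbol from a table of 51826 genes. All 33 were found, all 33 were above 0 TPM in both libraries, and all 33 had a mean of at least 1 TPM. Levels are in TPM, a unit in which reads are corrected for gene length and every library adds up to 1000000. Total RNA was measured in v6.5, an established mouse embryonic stem (ES) cell line, with 1 library for the wild-type (WT) and 1 for the genotype labelled T29I. No treatment, time point or animal age is part of the labels. The series title names PRSS1 as the mutated gene, and both libraries carry the same strain label, NBA1-19349. The sources used here do not say whether the T29I cells are 1 clone, how the mutation was made, or what its zygosity is. Prss1, the mouse trypsinogen gene of that name, had 0 TPM in WT and in T29I, so its level checks neither label. With 1 library per group no difference has a replicate check, no test was run, and "higher" and "lower" describe these 2 libraries. Where 2 levels are given for a gene, WT comes before T29I, and a fold is the plain ratio of TPM.

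Homologous recombination repairs broken DNA by copying the sister chromatid. Broken ends are sensed by the Mre11-Rad50-Nbn complex and trimmed to single strands, the Brca1-Bard1, Palb2 and Brca2 proteins prepare these strands for strand exchange, and Rad51b, Rad51c, Rad51d, Xrcc2, Xrcc3 and the Rad54 proteins support it. The Fanconi anaemia proteins detect crosslinks between the DNA strands, and a core complex attaches ubiquitin to Fancd2 and Fanci. Atm and Atr are the kinases that start the checkpoint, and Chek2 and Chek1 carry their signal to the cell cycle. ES cells replicate fast and are known to rely on recombination, and mice that lack Brca1, Brca2 or Atr die as embryos.

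Many of these genes start next to a gene on the other strand, and their promoters are shown because genes with low and high ratios, and repair genes and their neighbours, are set against each other below. Of the 33 genes 25 had a promoter in the RefSeq table (build GRCm38.p6), a window of 300 bases with 250 before and 50 after the start. Exo1, Fancd2, Nbn, Rad50, Rad51d, Rad54b, Rbbp8 and Xrcc2 are the other 8. Each sequence below is the longest stretch of the 250 bases before the start that holds no annotated exon, read on the strand of the repair gene. Capitals mark matches, on either strand, to CCAAT, which reads ATTGG on the other strand, or to the E2F words TTTCCCGC, TTTGGCGC, TTTCGCGC and TTTGCCGC.
Brca2, chr5:150522371-150522620, + strand: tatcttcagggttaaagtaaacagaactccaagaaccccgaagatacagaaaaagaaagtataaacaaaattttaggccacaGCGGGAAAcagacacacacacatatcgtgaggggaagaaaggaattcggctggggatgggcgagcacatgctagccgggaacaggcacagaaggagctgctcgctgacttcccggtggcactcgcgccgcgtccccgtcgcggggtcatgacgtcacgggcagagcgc
Atm, chr9:53536741-53536921, - strand, facing Npat: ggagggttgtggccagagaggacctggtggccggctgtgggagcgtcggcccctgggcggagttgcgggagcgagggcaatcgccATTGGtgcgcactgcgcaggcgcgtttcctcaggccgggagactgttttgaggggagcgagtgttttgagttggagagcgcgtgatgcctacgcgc
Brca1, chr11:101551956-101552148, - strand, facing Nbr1: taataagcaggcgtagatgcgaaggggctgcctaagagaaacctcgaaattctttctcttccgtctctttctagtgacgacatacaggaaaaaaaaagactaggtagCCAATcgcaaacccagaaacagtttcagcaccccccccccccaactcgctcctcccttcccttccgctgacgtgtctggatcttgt
Pms2, chr5:143909848-143909963, + strand, facing Aimp2: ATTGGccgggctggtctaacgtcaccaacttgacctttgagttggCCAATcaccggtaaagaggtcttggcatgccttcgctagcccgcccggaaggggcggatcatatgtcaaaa
Chek2, chr5:110839778-110839978, + strand, facing Hscb: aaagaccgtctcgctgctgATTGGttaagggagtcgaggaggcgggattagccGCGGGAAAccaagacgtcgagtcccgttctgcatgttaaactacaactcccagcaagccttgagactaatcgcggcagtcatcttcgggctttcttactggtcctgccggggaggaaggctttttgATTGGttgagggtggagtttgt
Fance, chr17:28313280-28313518, + strand: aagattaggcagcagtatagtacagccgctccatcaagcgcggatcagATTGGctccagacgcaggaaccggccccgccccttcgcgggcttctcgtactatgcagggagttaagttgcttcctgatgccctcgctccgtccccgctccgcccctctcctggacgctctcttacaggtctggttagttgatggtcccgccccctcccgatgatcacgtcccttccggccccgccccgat
The Brca2 stretch holds 1 E2F match and no CCAAT match, the Chek2 stretch 1 E2F and 2 CCAAT matches, the Pms2 stretch 2 CCAAT matches, and the Atm, Brca1 and Fance stretches 1 CCAAT match each. An E2F word stood in the 300-base window of 6 of the 25 genes (Bard1, Brca2, Chek2, Fancg, Msh6 and Rad51c), which is 24%, against 2.6% of the 27025 genes in the promoter table. A CCAAT match stood in 17 of 25 (68%) against 41.1% of all genes. The word TTTGAA, the cell-cycle homology region, stood in Bard1 and Rad51b, 8% of the 25, against 20.2% of all genes. GGGCGG, the GC box, stood in 17 of 25 (68%) against 38.2%, TATAAA in Atm and Brca2 (8%) against 15.7%, and the NRF1 palindrome in 0 of 25 against 1.07%. All motifs were searched on both strands and counted per gene, and none of these words contains another, though their ends may overlap. The median GC content of the windows was 59.7% for the repair genes and 52.7% for all genes. Atm was at 31.7 and 0.805 TPM and Fance at 23.2 and 54.9 TPM, and the part of these motifs in the levels was not tested.

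Most of the 33 genes had a lower level in T29I. Their summed level was 1506 TPM in WT and 358 TPM in T29I, and 900 and 252 TPM without Msh6, the most abundant of them. The median gene had 27.6 TPM in WT and 5.61 TPM in T29I, and the number at 10 TPM or more was 30 and 6. Ratios are T29I over WT on the log2(TPM + 1) scale, where a pseudocount of 1 makes the difference of a low gene look smaller than it is. By this measure 28 of 33 genes were at least 2-fold lower, against 45.7% of the 12943 genes that averaged 1 TPM or more. At least 2-fold higher were 2 of 33, Rad51d and Fance, against 9.97% of all genes. The list median of the log2 ratio was -2.34, and that of all 12943 genes -0.84. In a bulk library, fewer cells of a type and less RNA per cell cannot be told apart.

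Because most genes were lower in T29I, each ratio was also set against the shift, the median log2 ratio of -0.90 over the 9375 genes that averaged 5 TPM or more. Relative to the shift 18 of 33 genes were at least 2-fold lower, against 22.2% of all genes. On the same footing 3 of 33 were at least 2-fold higher (Rad51d, Fance and Fancf), against 26.0% of all genes. The list median relative to the shift was -1.45, and 4 of 33 genes lay above it.

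**Figure D1:**
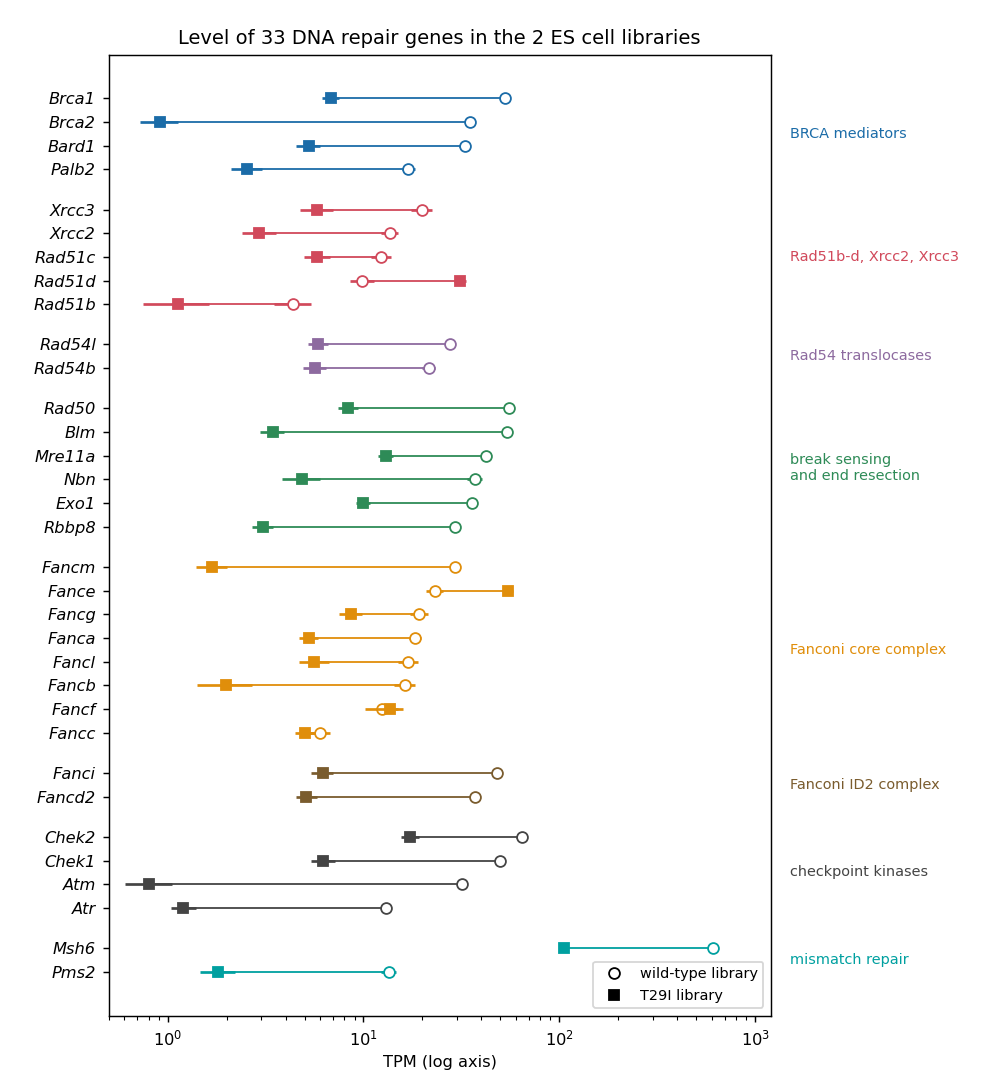
TPM of the 33 genes on a log axis, by role, with open circles for the wild-type library and filled squares for the T29I library; bars are 95% counting intervals and cover counting error only. The T29I square lies left of the wild-type circle for all genes but Rad51d, Fance and Fancf, and the widest gaps belong to Brca2 and Atm.

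Read counts recovered from TPM and gene length gave 16909904 reads assigned to genes in WT and 15281595 in T29I. The 33 genes held 45465 and 11161 of these. Depth was therefore similar, and a 95% counting interval of the fold excluded 1 for 29 genes that were lower and 2 that were higher, while it spanned 1 for Fancc and Fancf. The intervals cover counting error only and say nothing of differences between cultures or library preparations. All 8 ES cell markers were present in both, with summed levels of 5624 TPM in WT and 5009 TPM in T29I. Of the 8, 5 were at least 2-fold lower and 1 higher, against 45.7% and 9.97% of all genes. Relative to the shift 1 was lower and 1 higher by this rule, against 22.2% and 26.0%. Trophoblast markers summed to 119 and 881 TPM, with 1 of 8 at 0 in WT (Plac1) and 0 of 8 at 0 in T29I. Most of the T29I sum was Krt8 (28.6 and 389 TPM), Krt18 (15.4 and 353 TPM) and Hand1 (0.868 and 79.5 TPM). Cdx2 (0.256 and 0.402 TPM), Elf5 (0.0983 and 0.103 TPM) and Gata3 (0.339 and 1.56 TPM) were low in both, and Tfap2c was lower in T29I (73.4 and 53.1 TPM). Blood markers summed to 1.37 and 1255 TPM, with 3 and 1 of 7 at 0, and nearly all of the latter sum was the globin gene Hbb-bs at 1245 TPM. Fibroblast markers summed to 8.29 and 22.6 TPM, with 1 of 10 at 0 in each library, and most of both sums was Thy1 (4.57 and 17.6 TPM). Primitive endoderm markers summed to 8.33 and 2.51 TPM, with 0 of 6 at 0, and most of the WT sum was Sox7 (6.02 and 0.184 TPM). The part of these other lineages in the repair gene values was not tested.

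Among the 4 BRCA mediators (Brca1, Bard1, Palb2 and Brca2), Brca2 stood apart in the deposited values. Brca2 (ENSMUSG00000041147, GRCm38 chromosome 5, 150522630 to 150570329, 27 exons), a mediator that acts on single-stranded DNA at breaks, had 34.9 TPM in WT, with a 95% counting interval of 33.6 to 36.3, and 0.915 TPM in T29I, with an interval of 0.724 to 1.13. That is 38.2-fold lower (30.8 to 48.4), from an estimated 2474 and 82 reads. The intervals do not overlap, and only Atm had a lower level than Brca2 in T29I among the 33 genes. Brca1 (ENSMUSG00000017146, chromosome 11, 101488764 to 101551955, 23 exons), a ubiquitin ligase that favours recombination over end joining, had 52.9 TPM (50.8 to 55.1) in WT against 6.81 TPM (6.15 to 7.53) in T29I, 7.77-fold lower. Bard1, its obligate partner, was at 33 and 5.24 TPM, and Palb2, the bridge from Brca1 to Brca2, at 16.9 and 2.54 TPM. Bard1 over Brca1 was 0.622 (0.577 to 0.671) in WT and 0.770 (0.645 to 0.917) in T29I, intervals that overlap. Brca2 relative to Brca1 was at 0.660 (0.623 to 0.698) and 0.134 (0.105 to 0.171). All 4 genes passed the 2-fold rule downward as deposited and also against the shift, where the shares of all genes were 45.7% and 22.2%. After adjustment for length and GC content the log2 ratio was -1.24 for Brca2, -1.03 for Palb2, -0.72 for Brca1 and -0.56 for Bard1.

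The 5 genes Rad51b, Rad51c, Rad51d, Xrcc2 and Xrcc3, a family of strand exchange cofactors, went in both directions. Rad51d (ENSMUSG00000018841, chromosome 11, 82876434 to 82890614, 9 exons), a subunit of the complex that also holds Rad51b, Rad51c and Xrcc2, had 9.85 TPM (8.50 to 11.4) in WT against 31.1 TPM (28.9 to 33.4) in T29I, from 190 and 763 reads. That is 3.16-fold higher (2.69 to 3.72), and the intervals of the levels do not overlap. Its log2 ratio was 1.56, the highest of the 33 genes, and 2.46 relative to the shift. The other members of its complex were lower, with Xrcc2 at 13.6 and 2.93 TPM, Rad51c at 12.3 and 5.80 TPM and Rad51b at 4.36 and 1.13 TPM. Rad51b, from 85 and 28 reads, was the lowest of the 33 genes in WT. Xrcc3, which pairs with Rad51c, was at 19.8 and 5.78 TPM. Once the shift was taken off, Rad51c had a log2 ratio of -0.08, Rad51b of -0.44, Xrcc3 of -0.72 and Xrcc2 of -0.997, so 0 of 5 genes passed the 2-fold rule downward, against 22.2% of all genes. Rad51d stood at 0.798 of the level of Rad51c in WT (0.660 to 0.963) and at 5.36 times that level in T29I (4.53 to 6.37).

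Both Rad54 translocases, which remodel DNA during strand exchange, were lower and at like levels. Rad54l was at 27.6 and 5.87 TPM and Rad54b at 21.6 and 5.63 TPM. Relative to the shift the log2 ratio was -1.16 for Rad54l and -0.87 for Rad54b. Exons of Rad54b share 2068 bases with Fsbp on the same strand, a gene at 6.19 and 0.452 TPM, so the value of Rad54b is uncertain.

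All 6 genes of break sensing and end resection were at least 2-fold lower, against 45.7% of all genes. Relative to the shift 4 of 6 were so, against 22.2%. Blm (chromosome 7, 80454733 to 80535119), the helicase mutated in Bloom syndrome, had 54.2 TPM (52.1 to 56.3) in WT against 3.44 TPM (2.97 to 3.94) in T29I, 15.7-fold lower. It was number 4 of 33 by level in WT and number 23 in T29I. Rbbp8, which encodes the resection factor CtIP, had 29.3 TPM (28.0 to 30.7) in WT against 3.05 TPM (2.69 to 3.46) in T29I. The 3 subunits of the sensing complex did not share 1 ratio, with Rad50 at 55.6 and 8.36 TPM, Nbn at 37.0 and 4.84 TPM and Mre11a, the nuclease, at 42.0 and 13.0 TPM. Mre11a stood at 0.755 of the level of Rad50 in WT (0.701 to 0.813) and at 1.55 times that level in T29I (1.34 to 1.80). Nbn over Rad50 was 0.664 (0.599 to 0.736) and 0.579 (0.447 to 0.742), intervals that overlap. Exo1, a long-range resection nuclease, was at 35.8 and 9.99 TPM. After adjustment for length and GC content the log2 ratio of Exo1 was 0.55 and that of Mre11a 0.26, against -1.74 and -1.62 as deposited.

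The 8 genes of the Fanconi core complex were divided. At least 2-fold lower were Fancm, Fancb, Fanca, Fancl and Fancg, 1 gene (Fance) was at least 2-fold higher, and Fancc and Fancf were neither. Over all genes the shares were 45.7% lower and 9.97% higher. Relative to the shift 2 of 8 were lower and 2 of 8 higher, near the 22.2% and 26.0% of all genes. Fancm (chromosome 12, 65075603 to 65132058), the translocase that anchors the complex on DNA, had 29.4 TPM (28.0 to 30.9) in WT against 1.68 TPM (1.39 to 2.02) in T29I, 17.5-fold lower. Fancb, an X-linked subunit, was at 16.3 and 1.98 TPM, from 252 and 39 reads. Fancl, the ubiquitin ligase subunit, was at 16.9 and 5.61 TPM. Fanca was at 18.4 and 5.25 TPM, and its binding partner Fancg at 19.2 and 8.62 TPM. Fancb and Fancl, which share a subcomplex, were at like levels in WT and 2.84-fold apart in T29I (1.97 to 4.17).

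Fance, the core subunit that binds Fancd2, and Fancf, an adaptor subunit, were not lower in TPM. Fance (ENSMUSG00000007570, chromosome 17, 28313519 to 28326572, 9 exons) had 23.2 TPM (20.9 to 25.6) in WT against 54.9 TPM (51.8 to 58.2) in T29I, 2.37-fold higher (2.11 to 2.67). Its log2 ratio was 1.21 as deposited, 2.10 relative to the shift and 0.31 after adjustment. Fancf, a gene with 1 exon of 1691 bases, had 12.4 TPM (10.2 to 15.0) in WT against 13.6 TPM (11.5 to 16.0) in T29I, intervals that overlap. The log2 ratio of Fancf was 0.12 as deposited, 1.02 relative to the shift and -0.35 after adjustment. Fancc, the third member of that subcomplex, had 5.97 TPM (5.26 to 6.74) in WT against 5.03 TPM (4.46 to 5.66) in T29I, also with overlapping intervals. Its log2 ratio was -0.21 as deposited, 0.23 when reads were scaled to the library total without length, and 0.42 after adjustment. Fance was number 18 of 33 by level in WT and number 2 in T29I, behind Msh6.

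Fancd2 and Fanci, the pair that receives the ubiquitin, were lower to a similar degree. Fancd2 (chromosome 6, 113531682 to 113597017) had 37.0 TPM (35.2 to 38.9) in WT against 5.11 TPM (4.52 to 5.76) in T29I, and Fanci 47.8 TPM (45.4 to 50.4) against 6.19 TPM (5.42 to 7.03). Fanci over Fancd2 was 1.29 (1.20 to 1.39) in WT and 1.21 (1.01 to 1.45) in T29I. These 2 genes therefore held nearly the same proportion in both libraries. Fanci shares 921 exon bases with Polg on the other strand and Fancd2 shares 257 with Fancd2os.

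The 4 checkpoint kinases were all at least 2-fold lower, against 45.7% of all genes, and 3 of 4 were so relative to the shift, against 22.2%. Atm had the lowest T29I level of the 33 genes. Atm (ENSMUSG00000034218, chromosome 9, 53439149 to 53536740, 62 exons), activated by double-strand breaks, had 31.7 TPM (30.2 to 33.2) in WT against 0.805 TPM (0.607 to 1.05) in T29I, 39.3-fold lower (30.1 to 52.4), from 1700 and 55 reads. Atr (chromosome 9, 95857597 to 95951781, 47 exons), activated by single-stranded DNA, had 13.0 TPM (12.4 to 13.7) in WT against 1.20 TPM (1.04 to 1.39) in T29I, 10.8-fold lower. The log2 ratio of Atr was -2.67 as deposited, -0.07 after adjustment for length and GC content and 0.66 when that adjustment used merged exon length. The order of Atm and Atr was reversed, since Atm was above Atr in WT and below it in T29I. Chek1, the effector of Atr, had 49.9 TPM (47.1 to 52.8) in WT against 6.24 TPM (5.38 to 7.19) in T29I, 8.0-fold lower. Chek2, the effector of Atm, had 64.3 TPM (60.3 to 68.4) in WT against 17.3 TPM (15.5 to 19.2) in T29I, 3.71-fold lower, and its log2 ratio relative to the shift was -0.94. Chek2 stood at 2.03 times the level of Atm in WT (1.87 to 2.19) and at 21.5 times in T29I (16.1 to 29.1). Chek1 over Atr was 3.83 (3.55 to 4.13) and 5.19 (4.22 to 6.39). The longest transcripts of Chek2 and Atm have 2276 and 9819 bases, and their adjusted log2 ratios were nearer each other, at -0.90 and -1.34. For Chek1 and Atr the adjusted ratios were -1.11 and -0.07, so Chek1 was then the lower. The part of transcript length in these proportions was not tested.

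Msh6, a mismatch-binding protein, was the most abundant of the 33 genes in both libraries, with 606 TPM (596 to 616) in WT against 106 TPM (102 to 110) in T29I, 5.73-fold lower (5.51 to 5.96). Pms2, the endonuclease subunit of mismatch repair, had 13.4 TPM (12.3 to 14.6) in WT against 1.81 TPM (1.47 to 2.21) in T29I. Against the shift their log2 ratios were -1.61 and -1.47, past the 2-fold rule for both, as for 22.2% of all genes. The order of the 33 levels was only loosely kept between libraries, with a Spearman's rho of 0.31 across the 33 genes, against 0.76 across all 12943 genes. Genes are not independent replicates, and these correlations describe the 2 libraries only.

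The log2 ratio of the 33 genes followed transcript length and GC content. Across the 33 genes Spearman's rho with longest-transcript length was -0.64, and with GC content it was 0.60, and across 12121 protein-coding genes it was -0.49 and 0.54. Brca2 and Atm, the lowest, have the longest transcripts of the 33 genes at 10724 and 9819 bases, and Fancf has the shortest. Protein-coding genes were put into 5 classes of like size by transcript length. The class of the longest, from 5060 bases up, holds 12 of the 33 genes, and all 12 were at least 2-fold lower. Their median was -2.65, against 75.7% and a median of -1.80 for all genes of that class. From 3734 to 5060 bases, 8 repair genes had a median of -2.42, against -1.20 for all genes there. From 2784 to 3734 and from 1848 to 2784 bases, 6 repair genes each had medians of -1.42 and -1.53, against -0.76 and -0.32. In each of these 4 length classes the repair genes thus had a lower median than all genes of the class. By GC content, 25 of the 33 genes lie in the 2 lowest of 5 classes, below 48.4%, where the medians were -2.74 and -2.36 for the repair genes and -1.65 and -1.46 for all genes.

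**Figure D2:**
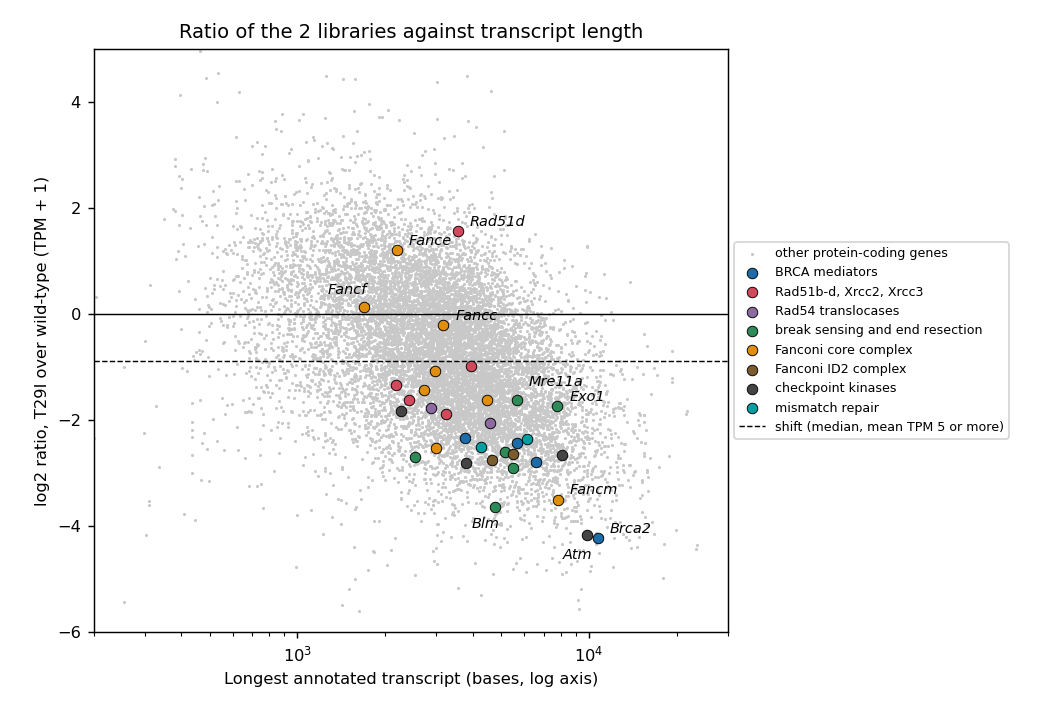
Log2 ratio of T29I over wild-type against the length of the longest annotated transcript (log axis), with the 33 genes coloured by role and 12074 other protein-coding genes in grey; 14 more fall outside the axes, and the dashed line is the shift of -0.90. Brca2 and Atm lie at the lower right, and Rad51d and Fance are the highest of the 33 genes.

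Adjustment for length and GC content, by a fit that accounted for 44.9% of the variance of log2 ratios over 9100 protein-coding genes, moved most of the 33 genes toward 0. The adjusted ratio was at or under -1 for 11 of 33 genes, against 15.5% of all genes, and at or above 1 for 1 of 33, Rad51d, against 17.6%. The median of the 33 genes was -0.75 and that of all genes 0.04, and 27 of 33 repair genes were below 0. The 11 genes at or under -1 were Blm at -1.88, Xrcc3 at -1.77, Nbn at -1.54, Atm at -1.34, Fanci and Brca2 at -1.24, Msh6 at -1.21, Chek1 and Fancm at -1.11, Fancb at -1.05 and Palb2 at -1.03. Brca1 was at -0.72 and Fancd2 at -0.82, and Atr at -0.07, or at 0.66 when merged exon length was used, an alternative chosen after seeing the data. The 6 genes above 0 were Rad51d, Rad51c at 0.57, Exo1 at 0.55, Fancc at 0.42, Fance at 0.31 and Mre11a at 0.26. Rad51d was at 2.51, above 98.1% of all genes. Xrcc3, short and GC-rich at 2422 bases and 56.9%, was the only gene lower as deposited whose ratio became more negative. A real difference between the cells that runs with length or GC content would be removed by this fit too, so the deposited and the adjusted ratio are both given. The part of the length and GC trend in each repair gene's value was not tested beyond this fit.

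**Figure D3:**
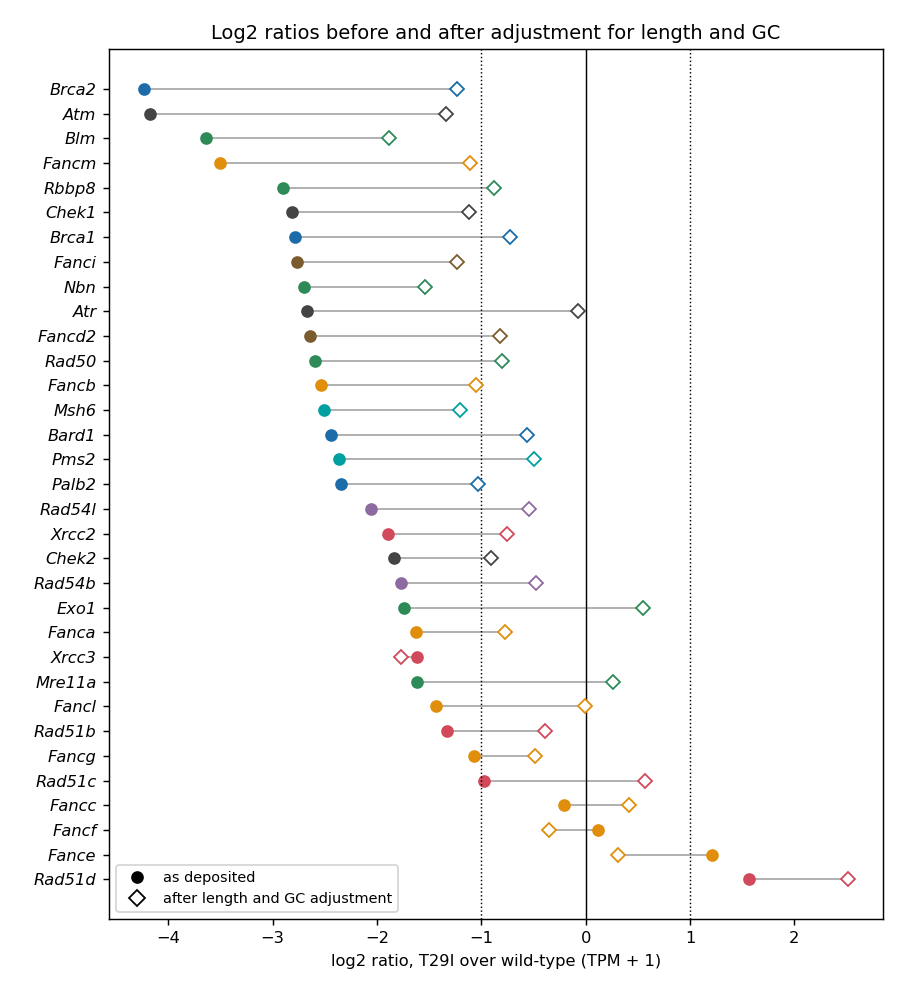
Log2 ratio of each of the 33 genes as deposited (filled circles) and after adjustment for length and GC content (open diamonds), with dotted lines at the 2-fold rule. The diamonds lie closer to 0 than the circles for most genes, and Rad51d lies further out after adjustment.

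Of the 33 genes, 13 start within 1000 bases of a measured protein-coding gene on the other strand, an arrangement in which a single stretch of DNA can hold both promoters. The repair gene was at least 2-fold lower in 11 of these 13 pairs, and its neighbour in 7 of 13, with 0 of 13 neighbours at least 2-fold higher. Over all genes these shares were 45.7% and 9.97%, so the count of neighbours lies near that of any genes. The median log2 ratio was -2.06 for the repair genes and -1.09 for the neighbours, and the neighbour had the higher ratio in 9 of 13 pairs. The neighbour had the shorter longest transcript in 9 of 13. In the pair of Pms2 and Aimp2, whose starts lie 117 bases apart and whose shared stretch is printed above, Pms2 was at 13.4 and 1.81 TPM while Aimp2, a scaffold of the tRNA synthetase complex, was at 124 and 221 TPM. Pms2 and Aimp2 thus lay in opposite directions, with transcripts of 6157 and 1185 bases. Chek2 at 64.3 and 17.3 TPM faces Hscb, an iron-sulfur cluster chaperone at 25.8 and 29.6 TPM, and Rad54l at 27.6 and 5.87 TPM faces Pomgnt1, a glycosyltransferase at 18.1 and 25.3 TPM.

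In several other pairs both genes were lower. Atm faces Npat, a regulator of histone genes at 39.5 and 6.15 TPM, across 307 bases, and the log2 ratios were -4.18 and -2.50. Brca1 faces Nbr1, an autophagy receptor at 66.9 and 16.8 TPM, with log2 ratios of -2.79 and -1.93. Fancd2 and Emc3 start 30 bases apart and had log2 ratios of -2.64 and -1.42, and Fancb and Mospd2 had -2.54 and -1.09. The neighbour was the lower gene of the pair for Mre11a (Ankrd49 at -2.14), Rad51b (Zfyve26 at -2.37), Rad51c (Tex14 at -1.25) and Fancf (Gas2 at -0.36). Zfyve26 has a transcript of 9391 bases, against 2187 for Rad51b.

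**Figure D4:**
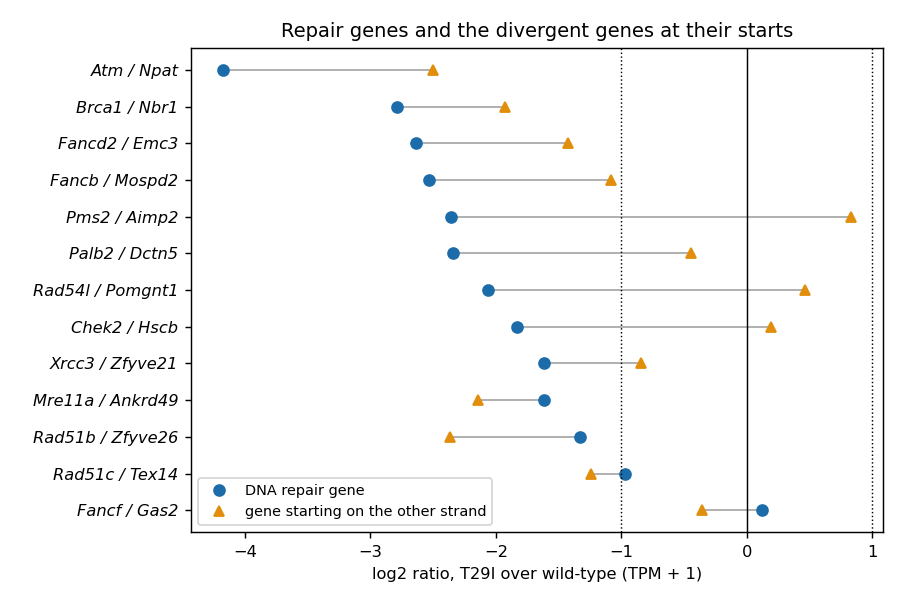
Log2 ratio of T29I over wild-type for the 13 repair genes (circles) that start within 1000 bases of a measured protein-coding gene on the other strand, and for that neighbour (triangles); dotted lines mark the 2-fold rule. Pms2 and Aimp2 lie farthest apart, at -2.36 and 0.83, and the neighbour is the higher of the pair in 9 of 13 pairs.

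Exons of 11 of the 33 genes overlap an exon of another measured gene in GENCODE M21, and for 1 of them, Rad54b, on the same strand. The largest overlaps on the other strand are 1184 bases of Rad54l with Lrrc41, which was at 14.7 and 33.7 TPM, 921 of Fanci with Polg and 920 of Fanca with Zfp276. The kit keeps the strand, but how strand was used in counting is not stated, so these values could hold reads of the partner. Lrrc41 was higher in T29I while Rad54l was lower. Fancf shares 253 bases with Gas2, which was at 3.67 and 2.64 TPM.

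Lists of other genes from the same pathways were read in the same way. Of 43 other recombination and Fanconi genes, 26 were at least 2-fold lower and 2 higher, against 45.7% and 9.97% of all genes. Relative to the shift 15 of 43 were lower by this rule, against 22.2% of all genes. The list median was -1.18 and the adjusted median -0.02. The lowest were Rfwd3, a ubiquitin ligase at 116 and 11.8 TPM, the nuclease-helicase Dna2 at 56.2 and 5.92 TPM, and Rmi1, a partner of Blm, at 30.0 and 2.79 TPM. The highest were Mus81, a structure-specific nuclease at 6.70 and 16.2 TPM, Babam1 at 55.8 and 121 TPM and Ercc1 at 18.4 and 35.8 TPM. Of 19 other checkpoint genes 11 were at least 2-fold lower and 0 higher, against 45.7% and 9.97% of all genes, with a median of -1.60. Relative to the shift 8 of 19 were lower and 1 higher, against 22.2% and 26.0%. Topbp1, the activator of Atr, was at 90.5 and 6.62 TPM, Clspn, the adaptor for Chek1, at 30.0 and 2.80 TPM and Mdc1 at 81.7 and 9.77 TPM, whereas Tipin was at 274 and 222 TPM, Rad9a at 42.2 and 45.1 TPM and H2afx at 406 and 461 TPM. All 5 other mismatch repair genes were at least 2-fold lower, against 45.7% of all genes, and 3 of 5 were so relative to the shift, against 22.2%. Mlh3 was the lowest at 16.9 and 1.16 TPM, with Msh3 at 17.8 and 1.69 TPM and Pms1 at 15.1 and 1.61 TPM.

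Genes of end joining, the alternative way to repair a break, were at least 2-fold lower in 5 of 9 and higher in 0 of 9, near the 45.7% and 9.97% of all genes, with a median of -1.11 and an adjusted median of 0.04. Prkdc, the catalytic subunit of DNA-PK, was at 13.9 and 0.597 TPM, while Poll, a repair polymerase, was at 19.1 and 36.2 TPM. The adjusted ratio of Prkdc, whose transcript is 12647 bases, was 0.04. Of the genes of S phase and proliferation, 8 of 17 were at least 2-fold lower and 0 higher, near the share of all genes, with a median of -0.998. Mki67, a proliferation marker with a long transcript, was at 129 and 3.48 TPM, Mcm4 at 310 and 59.6 TPM and Top2a at 310 and 61.8 TPM. In contrast Mcm2 was at 232 and 302 TPM, Aurka at 164 and 200.5 TPM and Plk1 at 247 and 298 TPM. The adjusted ratio of Mki67 was -2.13, and no other gene of this list was at or under -1. The adjusted median was -0.75 for the 33 repair genes. For the other mismatch repair genes it was -1.11, with 3 of 5 at or under -1. For the other checkpoint genes it was -0.02 with 7 of 19, and for the proliferation list 0.14 with 1 of 17. The share of all genes at or under -1 was 15.5%. These lists were read for description, and no difference between lists was tested.

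**Figure D5:**
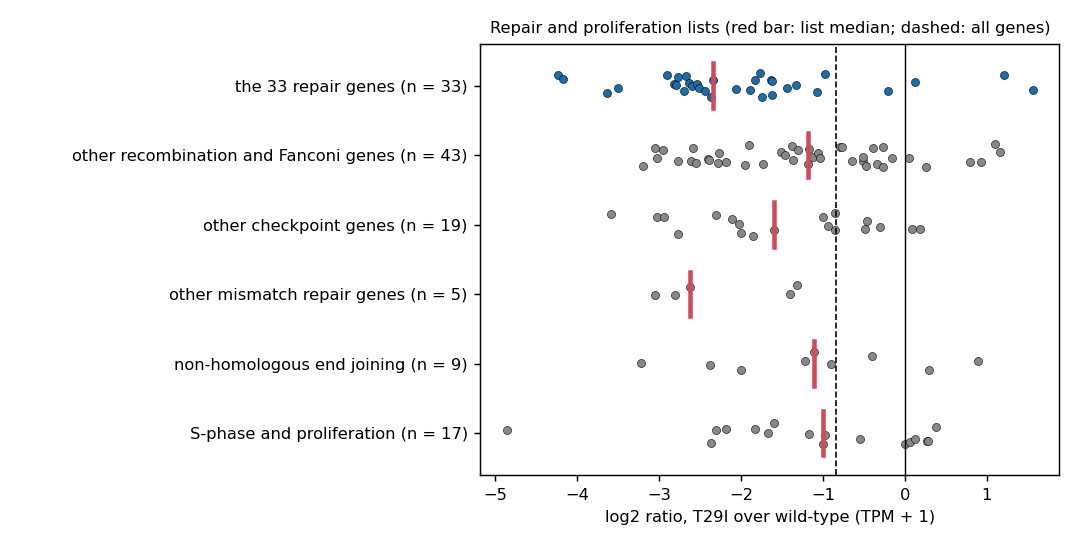
Log2 ratio of T29I over wild-type for the 33 repair genes (blue) and for 5 other lists (grey), with each list's median as a red bar and the median of all 12943 genes (-0.84) as a dashed line; points are spread vertically for visibility. The medians run from -2.63 for the other mismatch repair genes to -0.998 for the S-phase and proliferation genes.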

How the data were processed

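The authors deposited 1 table of TPM values for 2 libraries of v6.5 ES cells, with columns assigned through the sample descriptions. The kit was stranded, for total RNA, with rRNA removal after extraction by Isogen, per the labels' protocols. Aligner, counter, build and annotation were not given in the sources used here. Each column summed to 1000000.

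Log2 ratios were computed as log2(T29I TPM + 1) minus log2(WT TPM + 1), with a 2-fold rule over genes averaging 1 TPM or more. Of the 51826 gene identifiers, 51633 are in GENCODE M21 (GRCm38). TPM times merged exon length was a whole multiple of a fixed value, within 0.05 reads, for 80.1% and 79.2% of values above 0. This gave the reads behind each gene, whole in both libraries for 26 of 33 genes and rounded for 7 (Atr, Blm, Brca2, Fance, Msh6, Palb2 and Rbbp8). Intervals are 95% exact Poisson or, for ratios, exact conditional binomial intervals. The adjusted ratio is the residual from a quadratic fit, interaction included, on GC content and log2 length of the longest transcript. The calculations were tested on simulated data, in Python 3.11.15 with numpy 2.4.6, pandas 2.3.3 and scipy 1.17.1. The 33 genes and all lists were chosen with earlier results of these data known. All 33 genes are accounted for, and up to 3 genes at either end of each other list are named. Paxx was not in the table.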

Additional observations from a re-analysis of the deposited data

How the results depend on the processing

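The counts and the median of the 33 genes kept their direction under every alternative tried: pseudocounts of 0.1 and 5, no filter, a minimum mean of 5 TPM (which drops Rad51b), scaling without the 20 most abundant genes of either library, scaling to protein-coding genes, reads scaled to the library total without length, and the length and GC adjustment. Scaling moved the shift from -0.90 to -0.72 without the 20 most abundant genes and to -0.50 without length. The number at least 2-fold lower was between 26 and 29 under all alternatives but the adjustment, where it was 11 with the longest transcript and 11 with merged exon length. Relative to the shift it was 11 with either length, against 18. It was also lower, at 13, with a pseudocount of 5, and was 18 or 19 under the remaining alternatives. The number at least 2-fold higher fell to 1 under the adjustment with the longest transcript, from 2 as deposited and 3 relative to the shift. This number was 2 with merged exon length, and relative to the shift also 2 with a pseudocount of 5. The median log2 ratio was -1.54 with a pseudocount of 5, -2.02 without length, -0.75 after adjustment and -0.67 with merged exon length, the last and the scaling without length chosen after seeing the data. The sign was that of the deposited ratio in 28 of 33 genes with either length in the adjustment. Among genes at least 2-fold apart as deposited, Exo1 reversed to 0.55 (0.0683 with merged exon length), Mre11a to 0.26 with the longest transcript, and Atr to 0.66 with merged exon length. Under 2-fold as deposited, Rad51c went from -0.97 to 0.57 (0.39 with merged exon length), Fancc from -0.21 to 0.42 (1.17) and Fancf from 0.12 to -0.35 (-0.44), and Fancc was also 0.23 without length; beyond removing a trend with length and GC content, the cause was not tested. The counting interval is widest for Rad51b, at 85 and 28 reads. No replicate could be left out, because each group has 1 library. No paired analysis was possible because each group has 1 library and the labels carry no replicate numbers.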
